A study of Mus musculus with 30 samples.

Results

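Dendritic cells take up antigen in a tumor and present it to T cells, and 10 genes that mark these cells or direct their development were followed over 24 tumors of the CT-26 and Colon 26 models. The genes were Flt3l, Flt3, Irf8, Irf4, Batf3, Zbtb46, Clec9a, Cd209a, Siglech and Fscn1. They were listed by name, with no threshold on a measured value, and are 10 of the 53431 genes in the deposited table. CT-26 and Colon 26 are cell lines of mouse colon carcinoma from the BALB/c strain. Cells were implanted into the flank of female BALB/c mice, and 4 tumors of each model were taken at each of 3 sizes, 100, 400 and 800 mm3. Another 3 libraries of cultured cells of each line gave the background in the carcinoma cells alone, which makes 30 libraries of polyadenylated RNA in 8 groups. Whether the 3 came from separate cultures is not in the labels, so p-values in culture may measure only the spread between libraries. Measured volumes were within 102.9 and 145.86 mm3, 400.47 and 466.73 mm3, and 807.93 and 963.18 mm3 for the 3 sizes over both models. The labels name no antibody for any single sample, so the tumors were taken as untreated.

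Flt3 ligand, the product of Flt3l, is the cytokine that drives dendritic cell development through its receptor FLT3. The transcription factors IRF8 and BATF3 are needed for type 1 conventional dendritic cells, which cross-present antigen to CD8 T cells and carry CLEC9A and XCR1. IRF4 serves type 2 conventional dendritic cells, ZBTB46 marks the conventional lineage, SIGLECH marks plasmacytoid dendritic cells, and fascin, the product of Fscn1, bundles actin in mature dendritic cells and in many carcinoma cells.

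The unit of level is CPM, obtained from the counts after TMM normalization of library size, and values follow the order of tumors 1 to 4 of a group. These numbers are only names. Library totals lay between 21384700 and 39722600 counts, with the Colon 26 cultures (36042900 to 39722600) deeper than the CT-26 cultures (21384700 to 27856400). The leukocyte gene Ptprc, which encodes CD45, was at 43.3 to 186 CPM in the tumors and at no more than 0.209 CPM in any culture, as the labels of tumor and culture require. Libraries also differed in tissue around the tumor. The summed level of 4 skeletal muscle genes ran from 0.844 to 2188 CPM over the tumors and was at 1.33 to 1.69 CPM in the 4 Colon 26 tumors of 800 mm3. The 4 lymph node stroma genes summed to no more than 0.795 CPM in any tumor.

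Zbtb46, Fscn1 and Flt3l were also expressed by the carcinoma cells in culture, and the 250 bases upstream of their RefSeq starts (GRCm38.p6, 5′ to 3′) are shown as reference sequence of these 3 genes. They were not read in either line, and no value here relates them to the differences between the models. Capitals mark exact matches, on either strand, to the motifs searched, which were the cAMP response element TGACGTCA, the AP-1 motif TGANTCA, the E-box CACGTG, an IRF element (GAAA, any 2 bases, GAAA) and an ETS-IRF composite (GGAA, any 2 bases, GAAA).
Zbtb46, chr2:181424389-181424638, minus strand: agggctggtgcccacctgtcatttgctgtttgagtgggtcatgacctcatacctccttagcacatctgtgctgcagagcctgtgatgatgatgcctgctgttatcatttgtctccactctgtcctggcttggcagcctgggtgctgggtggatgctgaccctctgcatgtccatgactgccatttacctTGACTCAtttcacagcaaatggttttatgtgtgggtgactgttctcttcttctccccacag
Fscn1, chr5:142960105-142960354, plus strand: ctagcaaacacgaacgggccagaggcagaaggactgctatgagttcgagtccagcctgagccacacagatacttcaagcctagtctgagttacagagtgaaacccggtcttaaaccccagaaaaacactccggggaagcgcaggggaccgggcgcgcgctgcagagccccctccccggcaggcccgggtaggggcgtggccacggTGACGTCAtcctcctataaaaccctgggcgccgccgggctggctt
Flt3l, chr7:45136433-45136682, minus strand: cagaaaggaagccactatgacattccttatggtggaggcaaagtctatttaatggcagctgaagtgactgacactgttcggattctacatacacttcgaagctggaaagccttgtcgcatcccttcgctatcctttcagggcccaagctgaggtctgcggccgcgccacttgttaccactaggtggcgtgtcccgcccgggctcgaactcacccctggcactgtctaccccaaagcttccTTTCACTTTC
The Zbtb46 window lies inside the gene as GENCODE draws it (chromosome 2, 181387762 to 181459426), directly before an internal exon at which the RefSeq entry starts, so it is intronic in longer transcripts of the gene. It holds an AP-1 match 61 to 55 bases before the start. The Fscn1 window holds a cAMP response element 45 to 38 bases before the start, and the Flt3l window an IRF element in its last 10 bases. Among 32817 such windows of the mouse genome, AP-1 was found in 6.75%, the cAMP response element in 1.55%, the IRF element in 2.97%, the ETS-IRF composite in 2.3% and the E-box in 6.02%. The windows of Batf3 and Siglech held an E-box, and those of Clec9a, Flt3, Irf8, Irf4 and Cd209a held none of these motifs. A match describes letters in a window and does not show a bound site.

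The level per length of transcript, as FPKM, ordered the genes over the 24 tumors. Fscn1 was highest, with a median of 64.2 FPKM, followed by Irf8 at 17.8, Flt3l at 5.51, Zbtb46 at 3.10 and Batf3 at 1.21 FPKM. The remaining genes were low, with medians of 0.43 FPKM for Cd209a, 0.41 for Siglech, 0.38 for Clec9a, 0.32 for Irf4 and 0.19 for Flt3, and their ranges over the tumors overlapped. For these 5 genes, counts per tumor ran from 0 for Cd209a to 117 for Irf4, so counting error is part of their spread.

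**Figure D1:**
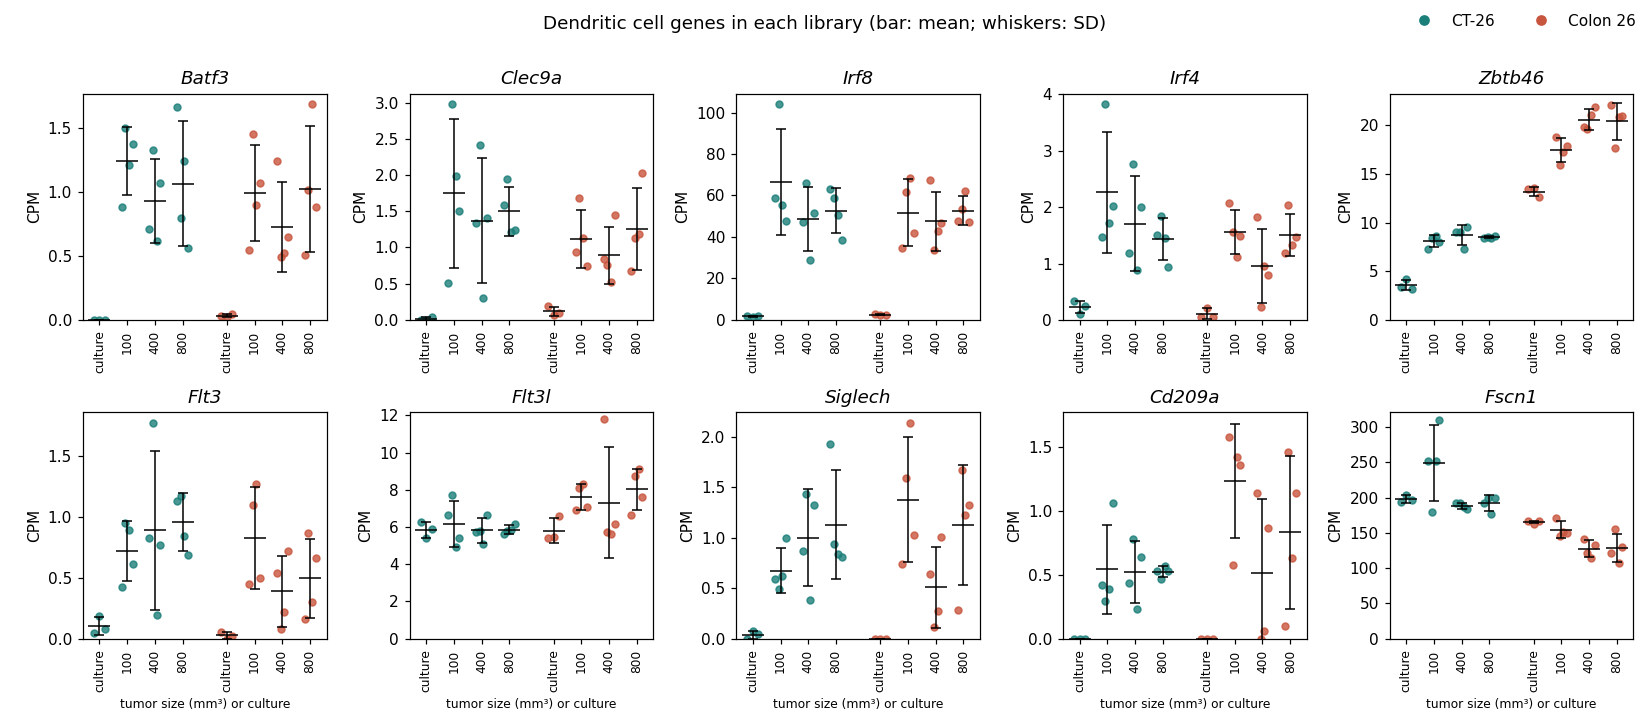
Level of each gene (vertical axis, CPM from 0) in every library, with CT-26 in green and Colon 26 in red, by culture or tumor size in mm3 (horizontal axis). Points are libraries, bars are group means and whiskers are SD (n = 3 culture libraries or 4 tumors). Zbtb46 was higher in every Colon 26 tumor (15.9 to 22.1 CPM) than in any CT-26 tumor (7.29 to 9.58 CPM). Fscn1 was lower in every Colon 26 tumor (107 to 172 CPM) than in any CT-26 tumor (176 to 311 CPM). The other genes overlapped between the models over the 24 tumors. How many of all genes did not overlap was not counted.

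Set against culture, the genes fell into those seen almost only in tumors and those that the carcinoma cells also expressed. Irf8 was at 1.52 to 1.84 CPM in CT-26 and at 2.34 to 2.81 CPM in Colon 26 cultures, and its tumor means were 28.7 to 39.2-fold and 19.0 to 21.0-fold higher. Cd209a had 0 counts in all 6 culture libraries. Against a limit of 3 counts per library, its tumor means were at least 3.74-fold higher in CT-26 and at least 6.39-fold higher in Colon 26. Batf3 and Siglech had at most 3 counts in any culture. Their tumor means were at least 6.66-fold (Batf3) and 4.83-fold (Siglech) higher in CT-26, and at least 8.97-fold and 6.29-fold higher in Colon 26. Clec9a, Flt3 and Irf4 were at no more than 0.189, 0.186 and 0.326 CPM in any culture.
By contrast, Flt3l was at 5.38 to 6.57 CPM in the cultures of both lines, and its tumor means were 0.993 to 1.05 times the culture mean in CT-26 and 1.26 to 1.38 times in Colon 26. Fscn1 was at 193 to 204 CPM in CT-26 and 163 to 167 CPM in Colon 26 cultures, against tumor means of 0.954 to 1.26 and 0.770 to 0.935 times those levels. Zbtb46 was in between, with tumor means 2.28 to 2.46 times the CT-26 culture and 1.32 to 1.56 times the Colon 26 culture. In bulk tissue, fewer cells of a type and less RNA per cell cannot be told apart, and for these 3 genes the share of RNA from carcinoma cells was not measured.

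The comparison of the models at equal size was made by edgeR's quasi-likelihood test with Benjamini-Hochberg adjustment over all genes tested. To be called differentially expressed (DE), a gene needed an adjusted p no higher than 0.1 and a log2 fold change, Colon 26 over CT-26, of 1 or more in either direction. At 100 mm3, 3 of the 10 genes were DE, Zbtb46, Siglech and Cd209a, and all were higher in Colon 26. Over all 15406 genes tested there, 13.2% were DE and 6.17% were DE and higher. At 400 mm3 only Zbtb46 of the 10 was DE, against 14.3% of 15241 genes, and at 800 mm3 again only Zbtb46, against 14.1% of 15521 genes. The median log2 fold change of the 10 genes was -0.07, -0.46 and -0.00 at the 3 sizes, beside -0.00, 0.03 and -0.01 over all genes tested. At 400 and 800 mm3 the share of the 10 genes that were DE was thus no higher than the share of all genes.

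Zbtb46 (ENSMUSG00000027583.13, chromosome 2, minus strand) encodes the zinc finger factor of conventional dendritic cells. At 100 mm3 it was at 7.30, 8.47, 8.62 and 8.03 CPM in CT-26 tumors and at 18.8, 15.9, 17.3 and 17.9 CPM in Colon 26 tumors. At 400 mm3 the values were 9.07, 9.07, 7.29 and 9.58 CPM in CT-26 and 19.8, 19.7, 21.1 and 21.9 CPM in Colon 26. At 800 mm3 they were 8.44, 8.52, 8.39 and 8.63 CPM in CT-26 and 22.1, 17.7, 20.9 and 21.0 CPM in Colon 26. The models did not overlap at any size. How many of all genes tested did not overlap was not counted, here or for the genes below. By edgeR's test 55.5%, 51.8% and 58.0% of all genes had an unadjusted p under 0.05 at 100, 400 and 800 mm3. The log2 fold change of Zbtb46 by edgeR's quasi-likelihood test was 1.10 at 100 mm3 (standard error 0.09, adjusted p = 2.2e-05). It was 1.24 at 400 mm3 (standard error 0.10, adjusted p = 3.7e-05) and 1.26 at 800 mm3 (standard error 0.09, adjusted p = 2.7e-06). On the log2(FPKM + 1) scale of limma it was 0.89, 0.99 and 0.95, under the minimum fold change, with adjusted p of at most 3.2e-05.
The same direction was seen in culture, where Zbtb46 was the only one of 4 tested genes of the list that was DE. In culture Zbtb46 was at 3.40, 4.16 and 3.13 CPM in CT-26 and at 13.4, 13.5 and 12.6 CPM in Colon 26. The log2 fold change in culture was 1.93 (standard error 0.09, edgeR's adjusted p = 1.4e-11), beside 22.9% of 14334 genes DE in that comparison. Whether the difference in culture was larger than in tumors was not tested. The Colon 26 cultures were also the more deeply sequenced ones, and depth and model cannot be told apart there. Ordered by mean, Zbtb46 stood at 20.6 ± 1.05 CPM (SD, n = 4) in Colon 26 tumors of 400 mm3, 20.4 ± 1.89 at 800 mm3 and 17.5 ± 1.23 at 100 mm3, then at 8.75 ± 1.0, 8.50 ± 0.105 and 8.10 ± 0.590 in CT-26 tumors of 400, 800 and 100 mm3. Within a model the neighbours at 400 and 800 mm3 overlapped.

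Fscn1 (ENSMUSG00000029581.14, chromosome 5, plus strand), the actin bundler fascin, went the other way. At 100 mm3 it was at 252, 179, 252 and 311 CPM in CT-26 tumors and at 172, 146, 151 and 149 CPM in Colon 26 tumors. At 400 mm3 it was at 184 to 192 CPM in CT-26 and at 114 to 141 CPM in Colon 26. At 800 mm3 it was at 176 to 200 CPM in CT-26 and at 107 to 155 CPM in Colon 26. The models did not overlap at any size, and the lowest CT-26 tumor of 100 mm3 lay close above the highest of Colon 26. Between the models it differed on the log2 scale by -0.69 (standard error 0.15, adjusted p = 0.0041), -0.57 (0.08, 4.3e-04) and -0.58 (0.11, 0.0010) in order of size by edgeR's quasi-likelihood test. It passed the adjusted p but not the minimum fold change at each size. Over all genes tested, 30.1%, 26.3% and 31.0% were lower in Colon 26 by the adjusted p alone. In culture it was at 193, 204 and 196 CPM in CT-26 and at 166, 163 and 167 CPM in Colon 26, which gives -0.21 on the log2 scale (standard error 0.03, edgeR's adjusted p = 5.7e-06), where 40.4% of the genes tested were lower by that rule.

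**Figure D2:**
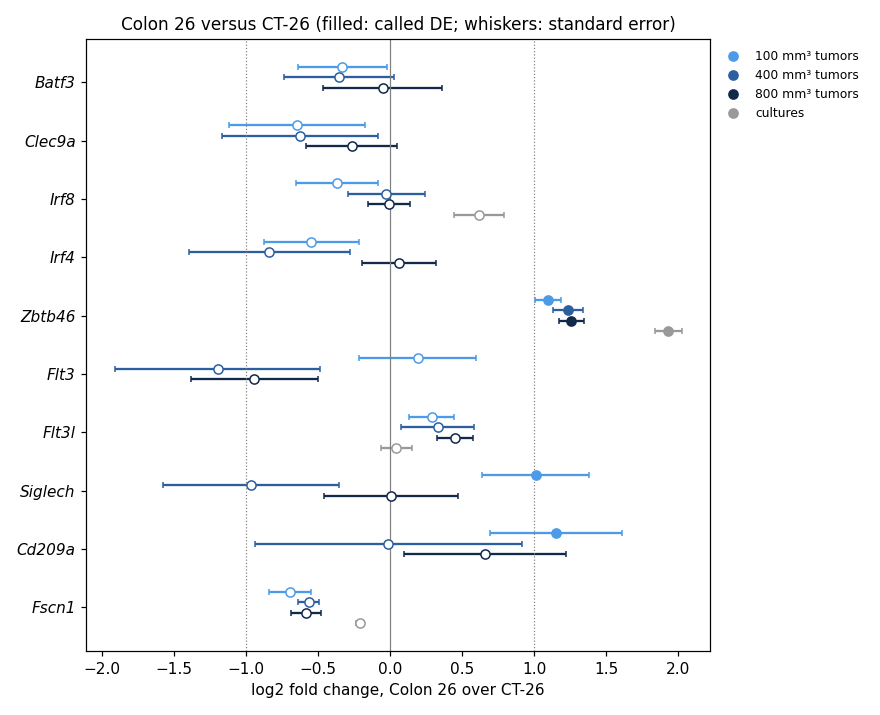
Log2 fold change of Colon 26 over CT-26 (horizontal axis) for each gene (vertical axis) in tumors of 100, 400 and 800 mm3 (light to dark blue) and in cultures (grey), with standard errors as whiskers. Filled points were DE and dotted lines mark the minimum fold change. Zbtb46 lies at 1.10 to 1.26 in tumors and 1.93 in culture, Fscn1 at -0.57 to -0.69 in tumors, and Batf3, Clec9a, Flt3, Irf4, Siglech and Cd209a have no culture point because their counts did not pass the filter.

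The ligand Flt3l (ENSMUSG00000110206.1, chromosome 7, minus strand) was at 6.63, 7.71, 4.95 and 5.42 CPM in CT-26 tumors of 100 mm3 and at 6.91, 8.08, 8.31 and 7.10 CPM in those of Colon 26. At 400 mm3 it was at 5.76, 5.80, 5.07 and 6.67 CPM in CT-26 and at 11.8, 5.72, 5.60 and 6.14 CPM in Colon 26. At 800 mm3 it was at 5.60, 5.76, 5.86 and 6.17 CPM in CT-26 and at 6.67, 8.72, 9.13 and 7.60 CPM in Colon 26. The models overlapped at 100 and 400 mm3 and did not at 800 mm3, where the log2 fold change was 0.45 (standard error 0.13, edgeR's adjusted p = 0.013), past the adjusted p, as 28.3% of the genes tested were in this direction, and under the minimum fold change. At the smaller sizes it was 0.29 (standard error 0.15, adjusted p = 0.15) and 0.33 (standard error 0.25, adjusted p = 0.32). Without Colon 26 tumor 1 of 400 mm3 the second of these was 0.0024 (adjusted p = 0.99). The cultures of both lines overlapped, at a difference of 0.04 on the log2 scale (standard error 0.11, adjusted p = 0.72). Exons of Flt3l share 856 bases with Gm45713 on the same strand and its estimated counts were not whole in any of the 30 libraries, so its level is uncertain.
The receptor gene Flt3 (ENSMUSG00000042817.15, chromosome 5, minus strand) was low. It was at 0.422 to 0.948 CPM in CT-26 and 0.452 to 1.27 CPM in Colon 26 tumors of 100 mm3, with a difference of 0.19 on the log2 scale (standard error 0.41, edgeR's adjusted p = 0.73). At 400 mm3 it was at 0.828, 1.77, 0.192 and 0.770 CPM in CT-26 and at 0.539, 0.0758, 0.215 and 0.723 CPM in Colon 26, with a difference of -1.20 (standard error 0.71, adjusted p = 0.21). At 800 mm3 it was at 1.14, 1.18, 0.842 and 0.686 CPM in CT-26 and at 0.160, 0.866, 0.298 and 0.664 CPM in Colon 26, with a difference of -0.94 (standard error 0.44, adjusted p = 0.098), just short of the minimum fold change. The models overlapped at every size. Without Colon 26 tumor 2 of 800 mm3 the value there was -1.36 (adjusted p = 0.032) and without CT-26 tumor 4 it was -1.08 (adjusted p = 0.087), both DE.

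Among the other transcription factors, Irf8 (ENSMUSG00000041515.10, chromosome 8, plus strand), which macrophages and B cells also express, had similar levels in both models. At 100 mm3 it was at 58.7, 104, 55.2 and 47.6 CPM in CT-26 and at 34.8, 61.6, 68.6 and 42.1 CPM in Colon 26. At 800 mm3 it was at 63.4, 58.7, 50.4 and 38.5 CPM in CT-26 and at 47.7, 53.5, 62.0 and 47.2 CPM in Colon 26. The groups overlapped at every size, and CT-26 tumor 2 of 100 mm3, the highest of all, also had the highest Ptprc (186 CPM). On the log2 scale the models differed by -0.37 (standard error 0.29), -0.03 (standard error 0.27) and -0.01 (standard error 0.15) at the 3 sizes, with adjusted p of 0.32, 0.94 and 0.97 by edgeR's quasi-likelihood test. In culture it was 0.62 (standard error 0.17, adjusted p = 0.0039), higher in Colon 26, though from 37 to 104 counts per library.
Batf3 (ENSMUSG00000026630.9, chromosome 1, plus strand), the partner of IRF8 in type 1 cells, ran from 0.561 to 1.67 CPM in CT-26 tumors and from 0.493 to 1.69 CPM in Colon 26 tumors. Its log2 fold changes were -0.33, -0.35 and -0.05 (standard errors 0.31, 0.38 and 0.41). Irf4 (ENSMUSG00000021356.10, chromosome 13, plus strand), which plasma cells and activated T cells also express, ran from 0.883 to 3.82 CPM in CT-26 and from 0.227 to 2.07 CPM in Colon 26. Its log2 fold changes were -0.55, -0.84 and 0.06 (standard errors 0.33, 0.56 and 0.26). The models overlapped in both genes at each size and the lowest adjusted p was 0.20, for Irf4 at 100 mm3. With standard errors of up to 0.56, these values do not show that the models were equal. The smallest difference detectable at this depth and number of tumors was not computed.

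Clec9a (ENSMUSG00000046080.17, chromosome 6, plus strand), a receptor of type 1 cells for dead cell material, was at 0.506, 2.97, 1.99 and 1.51 CPM in CT-26 tumors of 100 mm3 and at 0.743 to 1.68 CPM in those of Colon 26. Colon 26 differed from CT-26 on the log2 scale by -0.65 (standard error 0.47), -0.62 (standard error 0.54) and -0.27 (standard error 0.32) at the 3 sizes, with adjusted p of 0.29, 0.38 and 0.51 by edgeR's quasi-likelihood test. All 3 values were below 0 and all groups overlapped. Its exons share 184 bases with Clec1b on the same strand, so some reads could belong to either gene.
Siglech (ENSMUSG00000051504.18, chromosome 7, plus strand), the lectin of plasmacytoid dendritic cells, was at 0.591, 0.490, 0.624 and 0.995 CPM in CT-26 tumors of 100 mm3 and at 0.743, 1.59, 2.13 and 1.03 CPM in those of Colon 26. At 400 mm3 it was at 0.868, 1.43, 0.384 and 1.33 CPM in CT-26 and at 0.640, 0.114, 0.277 and 1.01 CPM in Colon 26. At 800 mm3 it was at 1.93, 0.940, 0.842 and 0.810 CPM in CT-26 and at 0.287, 1.67, 1.22 and 1.33 CPM in Colon 26. The models overlapped at each size. Between the models the log2 fold change was 1.01 at 100 mm3 (standard error 0.37, adjusted p = 0.048), -0.97 at 400 mm3 (standard error 0.61, adjusted p = 0.23) and 0.00 at 800 mm3 (standard error 0.47, adjusted p = 0.99 by edgeR's quasi-likelihood test). The call at 100 mm3 was lost with all 24 tumors in one fit (adjusted p = 0.12) and without any one of CT-26 tumors 1, 2 or 3 or Colon 26 tumors 2 or 3, where the log2 fold change was 0.97, 0.88, 0.99, 0.95 and 0.75. At 400 mm3 Siglech was DE in the other direction, lower in Colon 26, without Colon 26 tumor 4 (-1.52, adjusted p = 0.096).
Cd209a (ENSMUSG00000031494.7, chromosome 8, minus strand), a lectin of monocyte-derived and type 2 dendritic cells, was at 0.422, 0.294, 0.390 and 1.06 CPM in CT-26 tumors of 100 mm3 and at 1.58, 0.578, 1.42 and 1.36 CPM in those of Colon 26. One CT-26 tumor lay within the range of Colon 26. The log2 fold change was 1.15 (standard error 0.46, adjusted p = 0.065 by edgeR's quasi-likelihood test). In one fit of all 24 tumors its adjusted p was 0.19. The call was also lost when any one of CT-26 tumors 1, 2 or 3 or Colon 26 tumors 1, 3 or 4 was left out, with log2 fold changes of 1.07, 0.94, 1.05, 1.01, 1.10 and 1.11. At 400 mm3 Colon 26 tumors 2 and 3 were at 0 and 0.0615 CPM and tumors 1 and 4 at 1.14 and 0.867 CPM, and the log2 fold change was -0.01 (standard error 0.93). At 800 mm3 it was 0.66 (standard error 0.56, adjusted p = 0.35), and 1.03 without Colon 26 tumor 1 (adjusted p = 0.025).
The 4 skeletal muscle genes also varied between these groups. Their summed level at 100 mm3 was 0.844, 207, 27.1 and 428 CPM in CT-26 and 169, 1129, 101 and 212 CPM in Colon 26. At 400 mm3 it was 2188 CPM in Colon 26 tumor 1 and 1.27 to 5.14 CPM in the other 3 tumors of the group, and in CT-26 it was 0.887 to 194 CPM. In Colon 26 tumors of 800 mm3 it did not exceed 1.69 CPM, and Siglech was at 1.67 and Cd209a at 1.46 CPM in tumor 2. The summed level of 3 adipocyte genes there was 2.33, 24.2, 23.8 and 2.32 CPM in tumors 1 to 4, and that of tumor 2 was the highest of the 24 tumors. The part of attached host tissue in these levels was not tested.

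The leukocyte content differed between tumors, so each gene was also given as its log2 ratio to Ptprc and compared between models by two-sided exact permutation tests. Zbtb46, Fscn1 and Flt3l were also expressed in cultures, where Ptprc was at no more than 0.209 CPM. For these 3 genes the ratio is therefore not a level per leukocyte. Left out were Flt3 and Siglech at 400 mm3 and Cd209a at 400 and 800 mm3, because a tumor there had at most 3 counts of the gene. Zbtb46 was higher relative to Ptprc in Colon 26 by 1.17, 1.40 and 1.24 at 100, 400 and 800 mm3, with an exact p of 0.029 each time, the smallest that 4 tumors against 4 allow. After adjustment over the 26 tests it was 0.25. No other ratio had an exact p under 0.05, and no ratio passed an adjusted p of 0.1. A single gene separated at all 3 sizes could by itself reach no lower adjusted p than Zbtb46 did. Missing 0.1 therefore does not decide whether a ratio differs. Irf8 relative to Ptprc differed by -0.28 (exact p = 0.086), 0.14 (exact p = 0.63) and -0.01 (exact p = 0.89). Ptprc itself had log2 fold changes of -0.16, -0.25 and -0.00 between the models, with edgeR's adjusted p of 0.73, 0.48 and 0.99.

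Between sizes of the same model, none of the 10 genes was DE in any of the 4 comparisons by edgeR or by DESeq2. In CT-26, 0.0% of 15104 genes (400 against 100 mm3) and 0.0% of 15298 genes (800 against 100 mm3) were DE by edgeR, though 3356 and 1610 genes had an unadjusted p under 0.05 and DESeq2 called 162 and 39. In Colon 26 these shares were 0.0131% of 15241 and 1.33% of 15404 genes. At an unadjusted p under 0.05, 1 of the 10 genes was found in each CT-26 comparison, 3 in Colon 26 at 400 mm3 and 2 at 800 mm3. Over all genes this held for 22.2% and 10.5% in CT-26 and for 12.7% and 20.7% in Colon 26, in the same order. Fscn1 was among them in all 4, with log2 fold changes of -0.40 and -0.38 in CT-26 and -0.29 and -0.28 in Colon 26, and adjusted p of 0.16, 0.45, 0.27 and 0.18. Both comparisons of a model share its 100 mm3 tumors.
Zbtb46 had log2 fold changes of 0.23 (standard error 0.07, edgeR's adjusted p = 0.29) and 0.22 (standard error 0.08, adjusted p = 0.19) in larger Colon 26 tumors, and of 0.11 and 0.06 (standard errors 0.12 and 0.10) in CT-26. Siglech had 0.56 and 0.72 in CT-26 (standard errors 0.41 and 0.36) but -1.43 (standard error 0.58, adjusted p = 0.37) and -0.30 (standard error 0.48) in Colon 26. The difference of the Siglech changes between the models, tested as an interaction term, was -2.01 at 400 mm3 (standard error 0.76, unadjusted p = 0.019, adjusted p = 0.58) and -1.02 at 800 mm3 (standard error 0.65, adjusted p = 0.55). None of the 10 genes passed for either interaction, by edgeR or by DESeq2, and at an unadjusted p under 0.05 Siglech at 400 mm3 was the single one. Over all genes, edgeR called 0.0% of 16077 and 0.0308% of 16238, with 1254 and 2031 genes at an unadjusted p under 0.05. Without Colon 26 tumor 1 of 400 mm3, Irf4 was lower there than at 100 mm3 (log2 fold change -1.24, adjusted p = 0.074) and lower than in CT-26 of the same size (-1.36, adjusted p = 0.078), both DE.

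**Figure D3:**
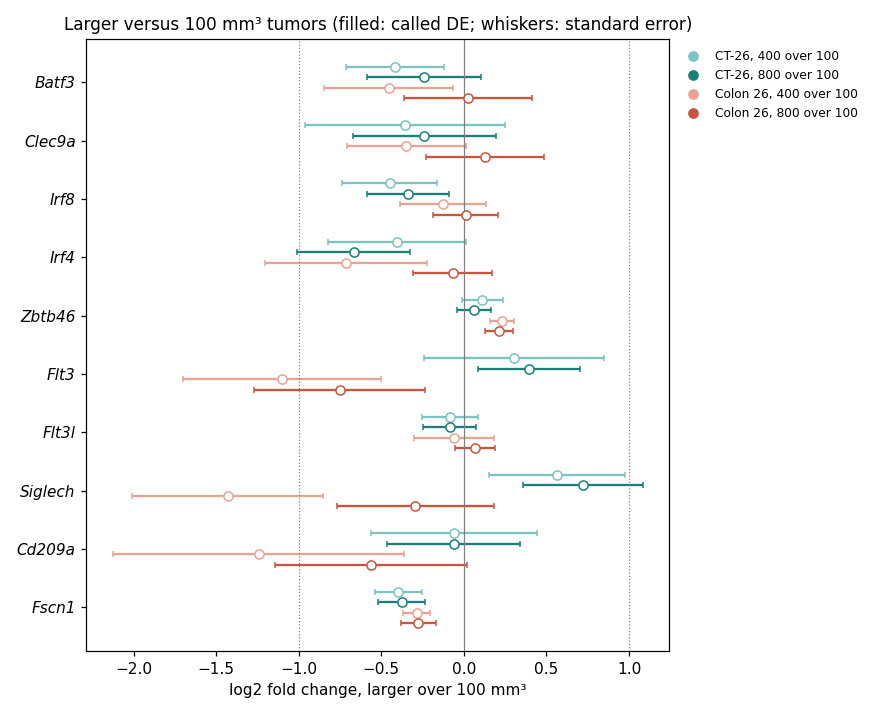
Log2 fold change of larger over 100 mm3 tumors (horizontal axis) for each gene (vertical axis), in CT-26 (green) and Colon 26 (red), paler for 400 and darker for 800 mm3, with standard errors as whiskers. All points are open because none was DE. Siglech lies at 0.56 and 0.72 in CT-26 and at -1.43 and -0.30 in Colon 26, with wide errors, and Fscn1 lies between -0.28 and -0.40 in all 4 comparisons.

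Further genes of the same cells were described from 6 lists. As background, 1088 of 15406, 1188 of 15241 and 1183 of 15521 genes tested were DE and lower in Colon 26 at 100, 400 and 800 mm3. DE and higher were 950, 988 and 1009 genes. Of 8 type 1 conventional dendritic cell genes, all 8 were tested at each size. Of these 2, 3 and 2 were DE and lower in Colon 26 at 100, 400 and 800 mm3, and 0 were DE and higher. The list's median log2 fold change was -0.40, -0.64 and -0.51, beside -0.00, 0.03 and -0.01 over all genes. In culture 5 of the 8 were tested, with a median of -0.58, beside 0.01 over all genes, and 4 lay below 0. The list's summed level was 272 to 286 CPM in CT-26 and 94.8 to 101 CPM in Colon 26 cultures. The part of carcinoma cells in the tumor values of this list was not tested. Xcr1, the chemokine receptor of these cells, averaged 2.78 ± 3.03 CPM (SD, n = 4) in CT-26 and 0.925 ± 0.702 CPM in Colon 26 tumors of 100 mm3. It had log2 fold changes of -1.58 (adjusted p = 0.13), -2.0 (adjusted p = 0.042) and -1.15 (adjusted p = 0.031 by edgeR's quasi-likelihood test), and was DE at 400 and 800 mm3. It was nearly absent from culture, at no more than 0.0371 CPM. Cadm1, an adhesion gene of type 1 cells, was DE and lower at each size, at -2.59, -2.66 and -2.33. Cadm1 was also at 173 to 180 CPM in CT-26 and 5.25 to 6.10 CPM in Colon 26 cultures.
Of 11 plasmacytoid dendritic cell genes tested, of 12 listed, 3 were DE and lower in Colon 26 at each size, and 1 was DE and higher at 100 mm3. The list's median log2 fold change was 0.06, -0.70 and -0.24, beside -0.00, 0.03 and -0.01 over all genes. Above 0 lay 6, 2 and 5 of the 11 genes, and below 0 lay 5, 9 and 6. The plasmacytoid list summed to 250.1 to 251.8 CPM in CT-26 and 224.5 to 236.0 CPM in Colon 26 cultures. Over the tumors its sum was 415.4 to 1269 CPM in CT-26 and 309.7 to 506.6 CPM in Colon 26. The part of carcinoma cells in these tumor values was not tested. Bst2, an antiviral surface protein, had log2 fold changes of -1.84, -1.62 and -0.98. Bst2 was DE at the first and second of these, and cultures held it too, at 135 to 138 CPM in CT-26 and 75.7 to 75.8 CPM in Colon 26. Irf7, a factor of interferon production, had -2.44, -2.40 and -1.87 and was DE at each size, with 17.6 to 19.1 CPM in CT-26 and 12.4 to 14.0 CPM in Colon 26 cultures. Spib, a factor of plasmacytoid cells and B cells, had -2.28, -2.37 and -1.95 and was DE at each size, with no more than 0.376 CPM in culture. The gene that was higher at 100 mm3 was Ccr9, a chemokine receptor, at 1.32 (edgeR's adjusted p = 0.035). Ccr9 was named after its value was seen. At 100 mm3 Siglech lay above 0, as Ccr9 did, while Bst2, Irf7 and Spib lay below.
Among 12 genes of activated migratory dendritic cells, 12, 11 and 12 were tested at 100, 400 and 800 mm3. Of these 3, 2 and 2 were DE and lower in Colon 26 and 0 were DE and higher. Their median log2 fold change was -0.43, -0.17 and 0.08. Above 0 lay 3, 4 and 7 of them, and below 0 lay 9, 7 and 5. This list summed to 162.1 to 164.7 CPM in CT-26 and 178.9 to 185.5 CPM in Colon 26 cultures. Over the tumors its sum was 152.5 to 219.6 CPM in CT-26 and 96.32 to 140.3 CPM in Colon 26. The part of carcinoma cells in the tumor values of the migratory list was not tested. Cacnb3, a calcium channel subunit, was lower at each size at -1.38, -1.38 and -1.52, and was at 38.6 to 40.5 CPM in CT-26 and 31.8 to 32.9 CPM in Colon 26 cultures. The homing receptor gene Ccr7 was not DE, at -0.23, -0.30 and 0.08 (adjusted p of 0.39, 0.62 and 0.89 by edgeR's quasi-likelihood test). Ccl22, a chemokine of mature cells, was DE at 100 mm3 alone, at -1.07 (standard error 0.31, adjusted p = 0.018), with -0.49 and 0.09 at the larger sizes.
Of 8 genes of antigen presentation and dendritic cells in general, 0, 1 and 1 were DE and lower, and 0 were DE and higher. The median log2 fold change of this list was 0.34, -0.54 and 0.71, beside -0.00, 0.03 and -0.01 over all genes. In culture 5 of the 8 were tested, with a median of -5.98, and 4 were DE and lower in Colon 26. Over all 14334 genes tested in culture, 1763 were DE and lower. The list summed to 18.4 to 19.0 CPM in CT-26 and 1.07 to 1.22 CPM in Colon 26 cultures, against at least 187.5 CPM in every tumor. The part of carcinoma cells in its tumor values was not tested. At 800 mm3 Cd74 and the MHC class II genes H2-Aa, H2-Ab1 and H2-Eb1 passed the adjusted p as higher in Colon 26. These 4, named after their values were seen, did not pass the minimum fold change, at 0.81, 0.81, 0.88 and 0.87. The share of all genes that were higher by the adjusted p was 28.3% there. Itgax, which encodes CD11c, was not DE, at 0.27, 0.13 and -0.09, and ran from 4.45 to 23.1 CPM over the tumors. Btla, an inhibitory receptor, was DE and lower at 400 and 800 mm3, at -1.39 (adjusted p = 0.089) and -1.19 (adjusted p = 0.025 by edgeR's quasi-likelihood test). Of 8 type 2 genes 7 were tested, of which 1 was DE and lower at 100 mm3 and 0 at the larger sizes. Their median log2 fold change was -0.09, 0.21 and -0.05. The type 2 list summed to 215.8 to 224.8 CPM in CT-26 and 85.14 to 87.82 CPM in Colon 26 cultures. Of 10 genes of recruitment and growth factors, 6, 7 and 7 were tested and 0, 3 and 0 were DE, each of them lower. The median log2 fold change of this list was -0.62, -1.08 and 0.32. Above 0 lay 2, 3 and 6 of its genes, and below 0 lay 4, 4 and 1.

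Other cells varied between the groups beside these values. The 3 natural killer cell genes were DE and lower in Colon 26 at each size, and their sum ran from 4.86 to 19.6 CPM over CT-26 and from 0.682 to 4.99 CPM over Colon 26 tumors. Of 5 T cell genes, 0, 4 and 0 were DE and lower. Of 6 macrophage genes, 0, 1 and 0 were DE, that one higher in Colon 26, and their sum was 248 to 1579 CPM in CT-26 and 774 to 1677 CPM in Colon 26. Of 5 neutrophil genes 3 were tested, and 0, 3 and 2 were DE and lower. CT-26 tumor 3 of 400 mm3 stood lowest in macrophage genes (248 CPM), in Ptprc (43.3 CPM), in Irf8 (29.1 CPM) and in Clec9a (0.307 CPM), and without it Flt3 was DE at 400 mm3, at -1.53 (edgeR's adjusted p = 0.086). The part of these cells in the values of the 10 genes was not tested.

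Over the 24 tumors the genes varied together to different degrees. Correlations are given as Pearson's r of log2 CPM, as a description without a test, since the tumors form groups and share normalization. Flt3 went most closely with Siglech among the 10 (r = 0.80, and 0.84 after subtraction of the group means). Siglech and Cd209a had 0.82 and 0.79. Irf8 followed Ptprc (0.84 and 0.86). Batf3 had 0.72 and 0.68 with Irf8, and Clec9a had 0.74 and 0.77 with Xcr1. Zbtb46 had -0.06 with Ptprc and Fscn1 -0.06, which became 0.34 and -0.56 within groups. Between Zbtb46 and Fscn1 r was -0.86 over all tumors and -0.22 within groups, and the gap between the models enters the first value but not the second. Cd209a went with the migratory genes Ccr7 (0.72 and 0.77) and Ccl22 (0.62 and 0.72).

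**Figure D4:**
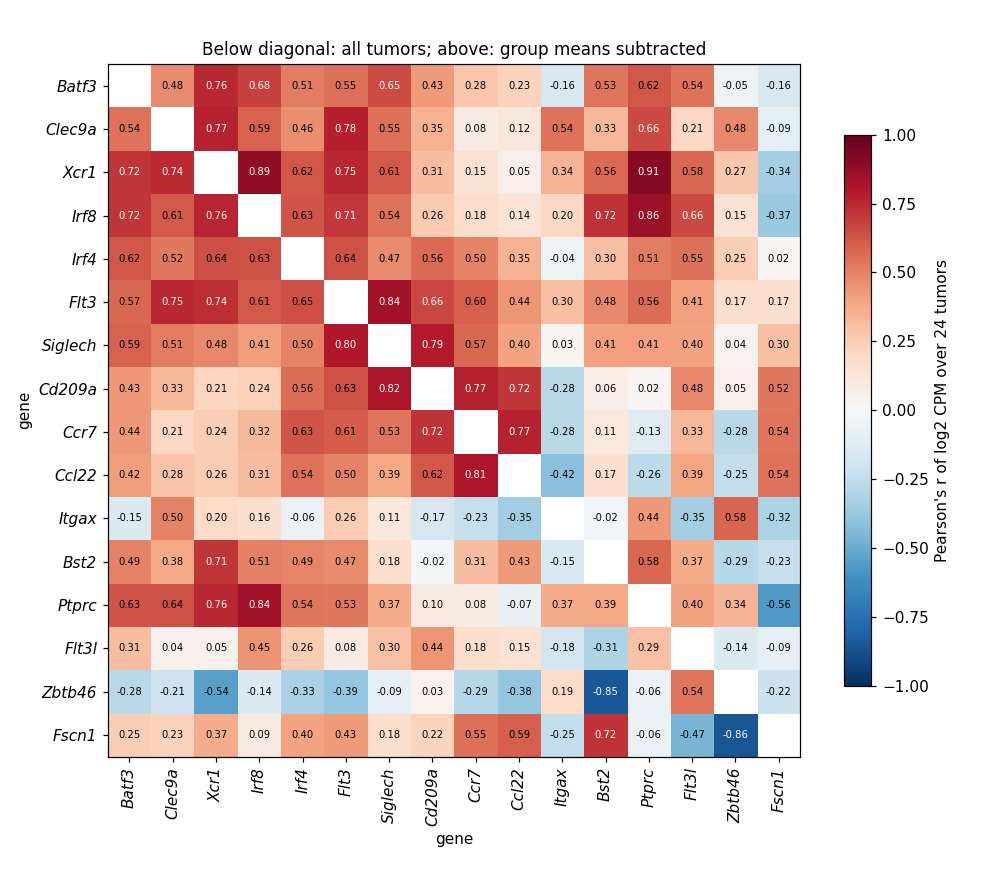
Pearson's r of log2 CPM between the 10 genes and 6 further leukocyte genes (both axes) over 24 tumors, on a colour scale from -1 (blue) to 1 (red). Values below the diagonal are over all tumors and those above are after subtraction of each group's mean. Batf3, Clec9a, Xcr1, Irf8, Irf4, Flt3 and Siglech have positive values with each other. Cd209a, Ccr7, Ccl22, Bst2, Ptprc and Flt3l also have positive values with each of these. The value between Zbtb46 and Fscn1 is -0.86 below the diagonal and -0.22 above it.

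Among 16487 genes that passed the filter, the most similar to each of the 10 were also listed. For Zbtb46 they were Mturn (r = 0.99), Galnt11 (0.99) and Wnt10b (0.98), which fell to 0.72, 0.48 and 0.42 within groups. For Fscn1 they were Mlf2 (0.96), Srm (0.94) and Cdk16 (0.94), at 0.80, 0.74 and 0.67 within groups. For Irf8 they were Themis2 (0.93), Calhm6 (0.92) and Fcgr4 (0.92), and within groups these were 0.95, 0.96 and 0.93. These 3 values thus held within the groups, unlike those of Zbtb46.
For Siglech the most similar genes were Gm21762 (0.92), Klk1 (0.92) and Ccr9 (0.86), of which Klk1 and Ccr9 were in the list of plasmacytoid genes. For Cd209a they were Cd209f (0.89), Clec10a (0.88) and Klk1 (0.87), and Cd209f is a close relative with which reads could be shared. For Flt3 they were Sept3 (0.89), Btla (0.88) and Itgae (0.85), and for Clec9a Cd1d1 (0.82), Prkch (0.79) and Pla2g2d (0.77). Batf3 was closest to Scarf1 (0.82), Ifi209 (0.80) and Ank2 (0.80), and Irf4 to Gramd3 (0.84), P2ry10 (0.83) and Gimap1 (0.83).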

How the data were processed

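RNA-seq libraries, 24 of tumors and 6 of cultured cells, were grouped by the labels, and their replicate numbers follow accession order. The authors deposited estimated counts per gene, not whole in 23.0% of non-zero values, and FPKM. Their methods name Array Studio and Ensembl release 78, and whether the deposited identifiers are of that release was not checked. Aligner, build and strand handling were not given in the sources used here, and the submitters' processing notes name DESeq2 1.24.0. For testing, these estimates were made whole by rounding (the design had spoken of counts as deposited). The test was edgeR 4.0.16 (R 4.3.3, limma 3.58.1): TMM, its filter on low counts, only the 2 groups compared, adjusted p of at most 0.1 and absolute log2 fold change of at least 1. Log2 CPM used a prior count of 2. A group was at the floor with at most 3 counts in each library. Floors cover counting error only. Since no label says that the samples of a group were raised separately, p-values measure only the spread between these samples. Symbols and positions came from GENCODE (GRCm38), which held 52207 of 53431 identifiers, and promoter windows from RefSeq.
The 10 genes and all lists were chosen with earlier results of these data known. Named were these 10, listed genes DE in the same direction in at least 2 of 3 model comparisons, Itgax, Xcr1, Ccr7, Ccl22, Bst2 and Ptprc, and the 3 most similar genes of each of the 10 (those of Flt3l are not reported here). Of the genes of other cell types under this rule, Eomes, Klrb1c, Ncr1, S100a8, S100a9 and Dcn were lower and Col1a1 and Pdgfra higher in Colon 26. Alternatives were DESeq2 1.42.0, other normalizations, filters, thresholds and fits, limma on log2(FPKM + 1) and log2(FPKM + 0.1), and leaving out each replicate. The comparison was tested on simulated counts. Python 3.11.15 with pandas 2.3.3 and scipy 1.17.1 did the rest.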

Additional observations from a re-analysis of the deposited data

Results flagged for a closer look

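Among 60 tests (10 genes in 6 tumor groups of 4), 3 found the highest or lowest tumor farther from the others than Dixon's critical value allows. Chance gives such a result in about 1 of 20 groups. Flt3l in Colon 26 tumors of 400 mm3 was highest at 3.57 log2 CPM in tumor 1, whose gap took 0.876 of the range. That tumor also had the highest skeletal muscle sum of the series (2188 CPM). Siglech in CT-26 tumors of 800 mm3 was highest at 0.999 log2 CPM in tumor 1, with a gap of 0.832 of the range. Cd209a in Colon 26 tumors of 100 mm3 was lowest at -0.63 log2 CPM in tumor 2, with a gap of 0.847 of the range.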

How the results depend on the processing

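The number of the 10 genes that were DE between the models depended on the settings and on single tumors. At 100 mm3 it was 3 and became 1 with all 24 tumors in one fit and 0 with limma on log2(FPKM + 1). There an adjusted p of at most 0.05 lost Cd209a, limma on log2(FPKM + 0.1) lost Siglech, and no minimum fold change added Fscn1. At 400 mm3 it was 1, 2 without a minimum fold change and 0 with limma on log2(FPKM + 1), and at 800 mm3 it was 1, 4 and 0. In culture it was 1, 3 without a minimum fold change, 2 with no filter on low counts (Clec9a added) and 3 with all 30 libraries in one fit (Batf3 and Clec9a added, at no more than 7 counts per culture). The other settings, DESeq2 among them, kept these counts within 1.5 times. With 1 replicate left out the counts ran from 1 to 3 at 100 mm3, from 1 to 2 at 400 mm3 and from 1 to 2 at 800 mm3, and from 0 to 1 for Colon 26 tumors of 400 against 100 mm3. At 100 mm3 Siglech, Cd209a or both lost the call in every such fit except that without CT-26 tumor 4. The log2 fold change of Zbtb46 stayed between 1.06 and 1.34 in tumors with 1 left out. Uncalled values changed sign in 4 such cases, for Cd209a in CT-26 tumors of 400 and 800 against 100 mm3 (ranges -0.32 to 0.51 and -0.28 to 0.50), for Flt3 in CT-26 tumors of 400 against 100 mm3 (-0.28 to 0.65) and for the Flt3l interaction at 400 mm3 (-0.33 to 0.12). Changes of sign by less than the standard error were not counted. The correlation of Zbtb46 with Mturn became 0.72 after subtraction of group means and 0.94 by Spearman's method, and that of Fscn1 with Mlf2 became 0.80 after subtraction. The cause of these moves was not tested. No paired analysis was possible because the labels give no replicate numbers. Depth limits Cd209a, Siglech and Flt3 most, since 3, 1 and 1 of the 24 tumors had at most 3 counts of them.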
